A study of Mus musculus with 3 samples.

Results

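The genes of the albumin cluster and a set of oncofetal liver genes were followed across 3 vectors in Hepa1c1c7 cells, a line grown from a mouse hepatoma. The set was chosen by gene name, with earlier results of these data known. It holds 10 genes of the 24842 on the array: Alb, Afp, Afm, Gc, H19, Igf2, Gpc3, Dlk1, Lin28b and Igf2bp3. They are read by 21 of the array's 56605 probes, all of them printed as 1 spot. Cells were transfected with a vector that was empty, carried Cd74 (whose protein chaperones MHC class II molecules) or carried Tmem54 (for a membrane-spanning protein), and the remaining culture conditions in the labels were shared. Each vector was measured on 1 single-colour Agilent array, so there is no spread between cultures and no difference was tested. The labels do not give the time after transfection, the share of cells that took up a vector, or whether a line is 1 clone. In total RNA of a culture, fewer cells with a transcript and less of it per cell cannot be told apart.

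Albumin, alpha-fetoprotein, afamin and the vitamin D-binding protein are secreted liver proteins of 1 gene family, and their genes lie near each other on the same chromosome. Alpha-fetoprotein is abundant in the yolk sac and fetal liver, is shut off after birth while albumin stays high, and returns in many hepatocellular tumours, which gave such genes the name oncofetal. The growth factor gene Igf2 and the non-coding RNA gene H19 are an imprinted pair of the fetal liver. Glypican-3 and DLK1 sit on the surface of fetal liver cells, and LIN28B and IGF2BP3 are RNA-binding proteins of fetal tissue, the former a block on maturation of let-7 microRNAs.

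The sequences shown first are the probes on which the measurements of Alb, Igf2bp3 and Dlk1 partly rest, taken from the array files and located on build mm9. Each is 60 bases long and has at least 1 reading frame without a stop codon. The Alb probe lies at chr5:90901598-90901657 on the plus strand, the Igf2bp3 probe at chr6:49057401-49057460 on the minus strand and the Dlk1 probe at chr12:110698428-110698487 on the plus strand. They are the dimmer of 2 Alb probes, the second-brightest of 3 Igf2bp3 probes and the brighter of 2 Dlk1 probes.
Alb: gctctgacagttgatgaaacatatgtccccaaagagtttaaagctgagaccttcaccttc
Igf2bp3: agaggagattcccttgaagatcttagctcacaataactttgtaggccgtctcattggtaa
Dlk1: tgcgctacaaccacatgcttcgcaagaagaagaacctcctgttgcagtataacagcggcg

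Alb and Afp stand in tandem and differed on these arrays, so the 250 bases before the start of each gene are shown side by side. They come from RefSeq's promoters on build GRCm38.p6, at chr5:90460620-90460869 for Alb and chr5:90490464-90490713 for Afp, both on the plus strand. Capitals mark the matches, on either strand, to 4 motifs: TGTTTGC, which forkhead factors bind, the boxes CCAAT and TATAAA, common promoter elements, and the E-box CACGTG. None of these motifs overlaps another.
Alb: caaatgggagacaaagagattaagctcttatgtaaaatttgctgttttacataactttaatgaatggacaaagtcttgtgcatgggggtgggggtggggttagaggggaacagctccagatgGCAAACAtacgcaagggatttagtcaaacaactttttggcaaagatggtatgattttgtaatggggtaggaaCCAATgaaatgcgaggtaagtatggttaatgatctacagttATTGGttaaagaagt
Afp: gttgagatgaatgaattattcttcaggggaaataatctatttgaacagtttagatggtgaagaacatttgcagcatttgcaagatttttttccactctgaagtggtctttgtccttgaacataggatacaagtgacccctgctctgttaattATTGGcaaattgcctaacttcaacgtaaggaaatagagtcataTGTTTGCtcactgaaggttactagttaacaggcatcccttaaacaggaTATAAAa

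Of the 10 genes, 9 had an entry in the RefSeq table, with 12 promoters in all because Igf2 has 4. All shares that follow are of 32851 promoters of the same length. The letters TGTTTGC stood in 4.30% of them and in 1 copy each before Alb and Afp, starting 128 and 55 bases before the gene. The other genes' promoters had 0 copies. The box CCAAT stood in 33.8% of promoters, with 2 copies before Alb and 1 before each of Afp, Afm, Gc, Gpc3, Lin28b and Igf2bp3 and 1 of the 4 Igf2 promoters. The box TATAAA stood in 12.4%, with 1 copy before each of Afp and Afm and 0 in the stretch shown before Alb. The Afp copy started 7 bases before the gene, and bases past the listed starts were not searched. The box CACGTG stood in 6.02%, with 1 copy before each of Lin28b and Igf2bp3. These matches describe letters only.

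Spots well above background made up 55.7% to 57.2% of each array, and 0 spots other than controls were saturated. The lowest probe signal well above background was 13.1 to 13.9, and replicate spots of the same probe had a median SD of 0.036 to 0.038 on the log2 scale. The transfected genes were bright on their own arrays: the processed signal, a linear intensity after background correction, was 10855 for Cd74 with its vector against 26.8 with the empty one, and 19747 for Tmem54 against 2.8. Of 26 hepatocyte markers, 12 were detected, which here means well above background on 1 array or more. Their summed level, in multiples of each array's 75th percentile, was 109 with the empty vector, 145 with Cd74 and 113 with Tmem54. Most of it was Rbp4, at 93, 131 and 95.3; the others summed to 16.1, 13.9 and 17.3, and the list's median difference from the empty vector was -0.08 with Cd74 and -0.05 with Tmem54. Rbp4 (retinol-binding protein), Ass1 (a urea cycle enzyme) and Apoa2 (an apolipoprotein) had signals of at least 2604 on every array. The defining liver genes Ttr, Apoa1, Apob, Fgb, Cps1 and Arg1 were not well above background on any, so only part of the hepatocyte marker list was measurable in these cells. Of the 10 genes described here, 6 passed the filter of a probe well above background on at least 1 array: Alb, Afp, Gpc3 and Igf2bp3 on all 3 arrays, Dlk1 on 1 and Igf2 on 1. Afm, Gc, H19 and Lin28b did not pass it. Of all 24842 genes on the array 15796 passed the same filter, a share near that of the 10 genes. The hepatocyte markers were detected by this filter too, so the same array-wide count stands beside theirs. A looser flag of the files, positive and significant over background, is also given where a probe carries it.

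**Figure D1:**
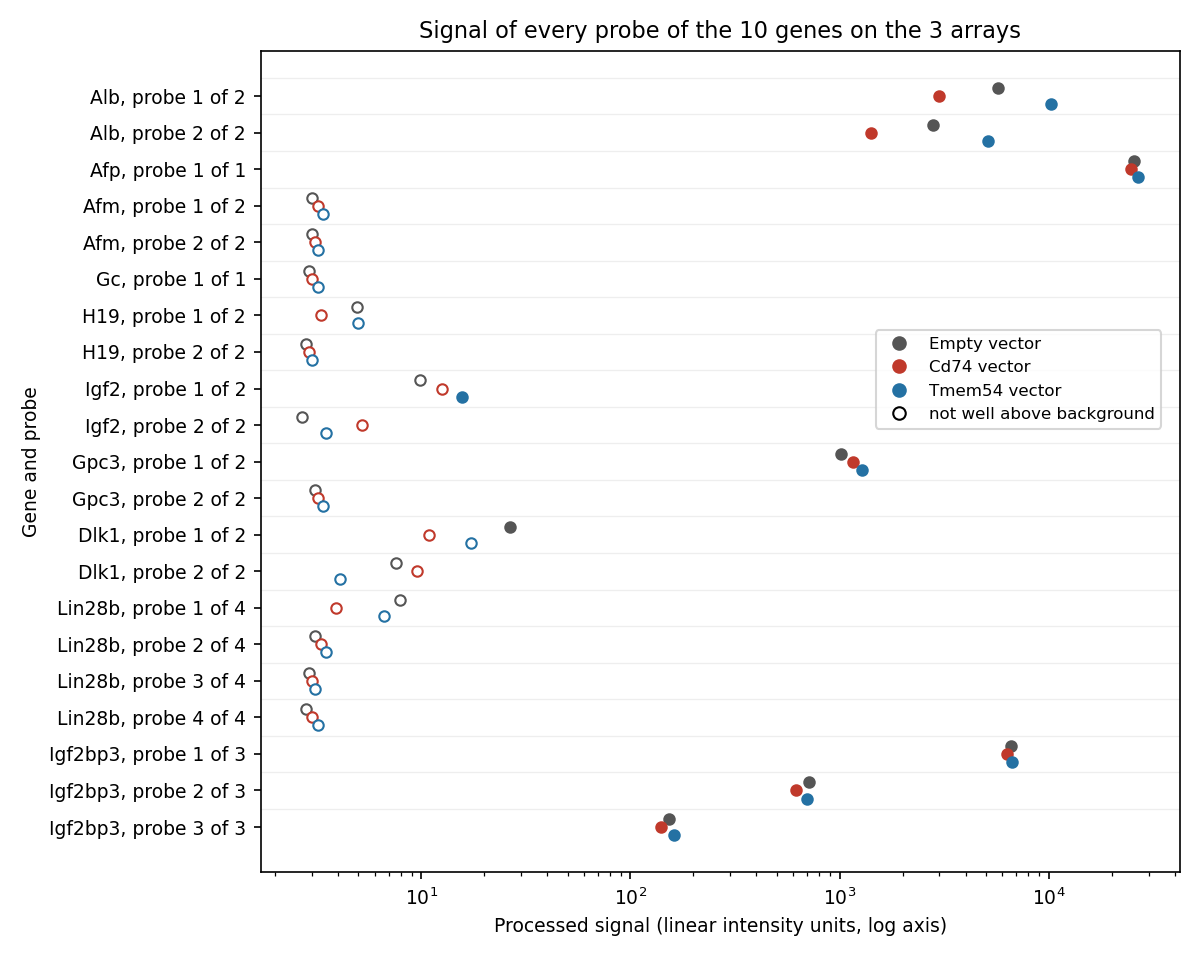
Processed signal (x, linear intensity on a log axis) of each of the 21 probes (y), with 1 point per vector; open points are not well above background. The Alb points are spread apart on both probes, from 2993 to 10261 on the brighter, while those of Afp lie between 24693 and 26705.

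Albumin was the bright gene of the set with the largest differences between arrays, and its 2 probes gave the same order. Its brighter probe, at chr5:90905550-90905609 (mm9, plus strand), read 5727 on the empty-vector array, 2993 with Cd74 and 10261 with Tmem54. Its dimmer probe had 2803, 1417 and 5110 in the same order. Cd74 was thus lowest and Tmem54 highest on both probes. On the log2 scale, after each array's 75th percentile was subtracted, the brighter probe differed from the empty vector by -0.87 ± 0.20 with Cd74 (0.547 times its level) and by 0.83 ± 0.20 with Tmem54 (1.78 times). The error is the model error of the processed signal, for noise within an array. The dimmer probe gave -0.92 and 0.85. Set directly against Tmem54, Cd74 was lower by -1.70 on the brighter probe and -1.77 on the dimmer, which is 3.25-fold and 3.42-fold.

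A gene was counted where arrays differed by at least 2-fold on its brightest probe. Against the empty vector 0 of the 5 genes that could be compared passed with Cd74, where 2.42% of all genes did. With Tmem54 0 of 6 passed, where 1.33% of all genes did. Between Cd74 and Tmem54 Alb alone passed, 1 of 5 genes, where 3.32% of all genes did. At 1.5-fold Alb and Dlk1 passed against the empty vector, both with Cd74 (7.52% of all genes) and with Tmem54 (3.81%), and Alb alone between the transfected genes' arrays (9.86%). For Dlk1 with Tmem54 this rests on a signal that was not well above background, and its fold is no lower limit. For single values, Alb was set beside 9901 bright genes, detected on each of the 3 arrays and with a highest level that reached the median of detected probes. Of these, 59 were lower than Alb for Cd74 minus empty, 6 were higher for Tmem54 minus empty, and 15 were lower for Cd74 minus Tmem54. The members were chosen with earlier results of these data known, so these ranks describe Alb and test nothing. The middle 90% of bright genes lay between -0.36 and 0.38 for the first of these differences and between -0.15 and 0.16 for the second.

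**Figure D2:**
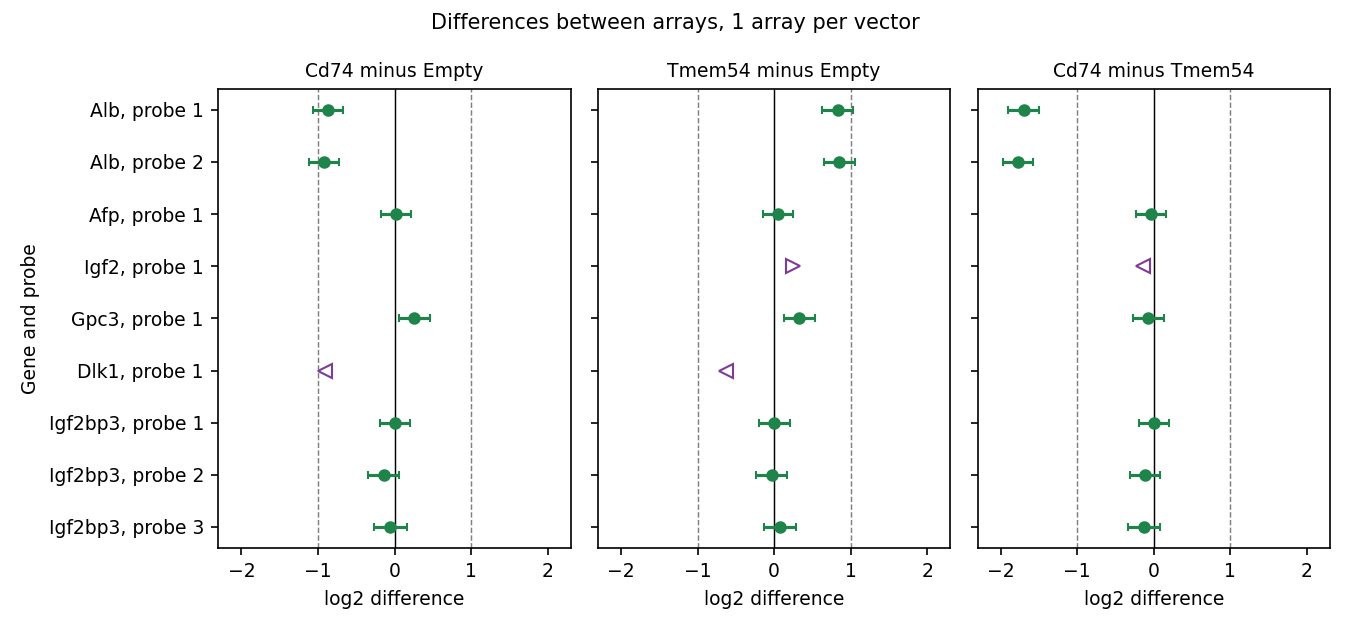
Log2 difference (x) of each probe well above background on at least 1 array compared (y), in 3 panels for the 3 comparisons; bars are the model error of the processed signal, open triangles are bounds and dashed lines mark 2-fold. Both Alb probes lie at -1.70 or lower for Cd74 minus Tmem54, and the Afp and Igf2bp3 probes lie between -0.14 and 0.07 in every panel.

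Afp, the fetal counterpart of albumin and its next neighbour, was bright and nearly level. Its probe (chr5:90937781-90937840, mm9, plus strand) had signals of 25519 with the empty vector, 24693 with Cd74 and 26705 with Tmem54. The log2 differences from the empty vector were 0.02 ± 0.20 with Cd74 and 0.05 ± 0.20 with Tmem54, both smaller than the model error. The probe was not saturated, and the highest signal on any array was at least 449950. Afp has 1 probe, so no other probe bears on it. Afm, for afamin, a vitamin E carrier, had signals of 3.0 to 3.4 on its 2 probes. Gc, for the vitamin D-binding protein, had 2.9 to 3.2 on 1 probe (chr5:89846592-89846651, minus strand). All 3 of these probes were neither well above background nor positive and significant on any array, so no difference could be read for either gene.

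The genes around the cluster were taken in their order on the chromosome, from the tenth protein-coding gene before Gc to the tenth after Afm, a stretch picked with the values of Alb known. Of these 28 genes, 19 were detected. The genes next to Alb on its other side were close to 0: Ankrd17 differed from the empty vector by 0.12 with Cd74 and -0.02 with Tmem54, and Cox18 by -0.04 and -0.01. Before Gc, Slc4a4 differed by -0.35 and 0.02 and Utp3 by 0.29 and 0.00. Rassf6, the first detected gene past Afm, differed by -0.07 and 0.09. Beyond it lies a group of chemokine genes with larger differences and no single direction. Ppbp, a platelet chemokine gene, had signals of 979.7 with the empty vector, 410.7 with Cd74 and 1202 with Tmem54, differing by -1.19 and 0.28. Pf4 and Cxcl15, both dim, were also highest with Tmem54, by 1.18 and 0.81 over the empty vector, and not well above background with Cd74. The neutrophil chemokine genes Cxcl5, Cxcl1 and Cxcl2 went the other way with Tmem54, by -1.83, -1.87 and -1.53. With Cd74 these 3 differed by -0.63, -0.10 and 0.30. Cxcl3, also bright, differed by -0.28 with Cd74 and -0.45 with Tmem54.

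**Figure D3:**
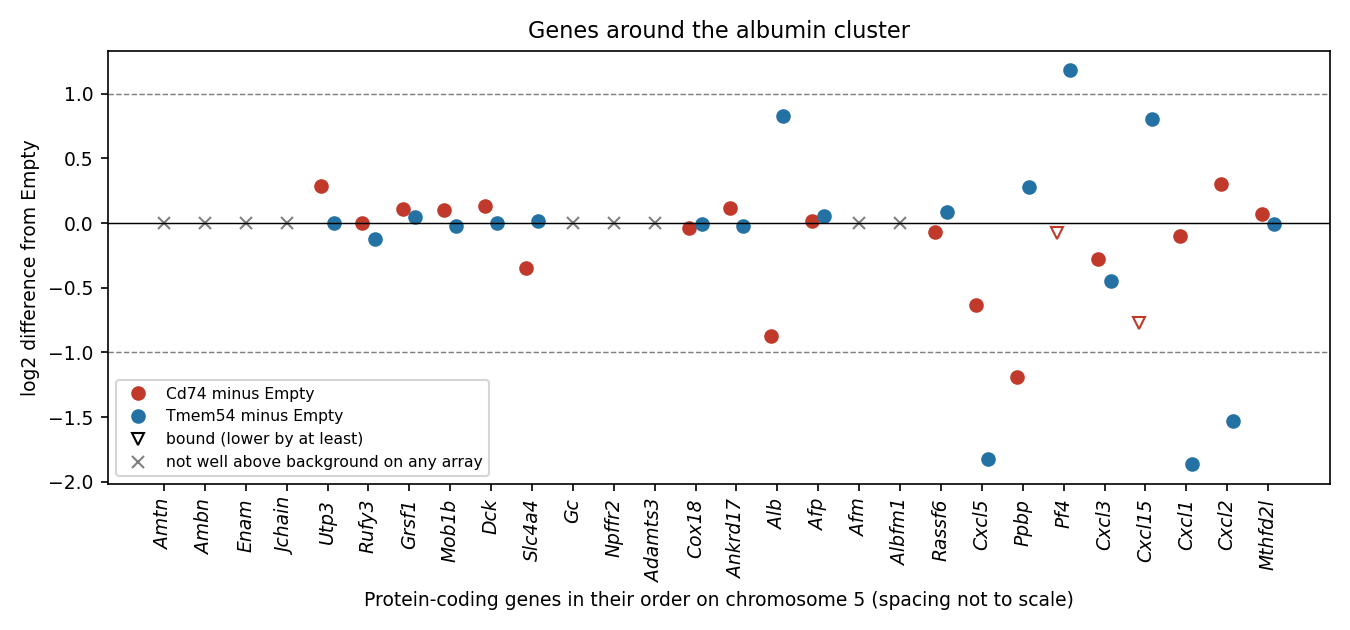
Log2 difference from the empty vector (y) of protein-coding genes in their order on chromosome 5 (x, spacing not to scale), with Cd74 in red and Tmem54 in blue; crosses are genes not well above background on any array. Alb stands at -0.87 and 0.83 between Ankrd17 and Afp, which lie near 0, and the chemokine genes from Cxcl5 to Cxcl2 spread widely.

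The imprinted growth genes Igf2 and H19 gave low signals. The brighter Igf2 probe (chr7:149837115-149837174, mm9, minus strand) had signals of 9.8 with the empty vector, 12.5 with Cd74 and 15.7 with Tmem54. It was well above background with Tmem54 alone, where it was at least 1.19-fold above the empty vector and at least 1.1-fold above Cd74. Such a bound sets the bright array against the dim array, taken at its detection floor or at the dim probe's own signal, whichever is higher. The other Igf2 probe had 2.7, 5.2 and 3.5, not well above background on any array but positive and significant with Cd74 and Tmem54. H19 had 4.9, 3.3 and 5.0 on 1 probe, positive and significant with the empty vector and Tmem54, and 2.8 to 3.0 on the other; neither was well above background on any array.

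Of the genes for surface proteins, Gpc3 was detected on all arrays and Dlk1 was well above background on 1. Gpc3, for a heparan sulfate proteoglycan, had signals of 1013 with the empty vector, 1159 with Cd74 and 1284 with Tmem54 on 1 probe (chrX:49625627-49625686, mm9, minus strand). The differences from the empty vector were 0.26 ± 0.20 and 0.33 ± 0.20, and 0.07 separated Tmem54 from Cd74. Of the bright genes 1159 were higher than Gpc3 for Cd74 minus empty and 55 for Tmem54 minus empty. Its second probe, drawn from another transcript model, had 3.1 to 3.4 and was neither well above background nor positive and significant on any array, so the value rests on 1 probe. Dlk1, for a ligand-like protein related to the NOTCH ligands, had signals of 26.4, 10.9 and 17.2 on the probe printed above. It was well above background with the empty vector alone, and at least 1.87-fold above Cd74. It was 1.55-fold above Tmem54, which is no lower limit. The Tmem54 signal lay above that array's detection floor of 13.9, so the value is the plain difference. The model errors of these 2 signals were 0.221 with the empty vector and 0.324 with Tmem54 on the log2 scale. Its other probe had 7.6, 9.5 and 4.1, not well above background but positive and significant on all arrays, with Cd74 highest, so the order was not the same on both probes.

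Of the genes for RNA-binding proteins, Igf2bp3 was detected on all arrays and nearly level, and Lin28b was not well above background on any. Igf2bp3, which binds Igf2 and other messages, had signals of 6588 with the empty vector, 6325 with Cd74 and 6656 with Tmem54 on its brightest probe (chr6:49037149-49037208, mm9, minus strand). Its log2 differences were 0.01 ± 0.20 and 0.00 ± 0.20. The printed probe had 711.0, 615.3 and 702.0, and the third had 152.3, 140.3 and 161.7. All 3 probes were within 0.14 of the empty vector. Lin28b had signals of 2.8 to 7.9 on its 4 probes. The brightest, with 7.9, 3.9 and 6.6, was positive and significant on all arrays without being well above background, and the other 3 were neither. Its paralogue Lin28a, no part of the set, was detected at 204.0, 156.1 and 206.5, a difference of -0.32 with Cd74.

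Genes that work with the set were taken as 8 lists. Among all genes compared, 2.42% passed 2-fold for Cd74 against the empty vector, 1.33% for Tmem54 against it and 3.32% between Cd74 and Tmem54, so lists of this size would hold few or 0 such genes at the same shares. The order of arrays seen for Alb, lowest with Cd74 and highest with Tmem54, was held by 25.4% of the 14473 genes well above background on all 3 arrays, so that order alone is common. With Tmem54 against the empty vector 0 genes of any of them were at least 2-fold higher, where 0.522% of all genes were. Of 24 regulators of Alb and Afp, 19 were detected and had a median of -0.10 for Cd74 minus empty, against 0.01 for all genes, and of -0.01 for Tmem54 minus empty, against 0.00. With Cd74 0 passed 2-fold in either direction. With Tmem54 1 of 19 was lower, where 0.812% of all genes were: Foxa3, a forkhead factor of the liver, which had 31.6 with the empty vector, 16.1 with Cd74 and 9.7 (not well above background) with Tmem54. It was at least 2.29-fold lower with Tmem54 and differed by -0.91 with Cd74. With normexp background correction 0 regulators passed with Tmem54. That setting adds an offset of 50 to each signal, which shrinks differences between signals of about that size or lower. Here and in the lists below, a dim gene's lost call under normexp therefore cannot decide whether its difference holds. Cebpd differed by -0.27 with Cd74 and -0.68 with Tmem54, and Trp53 by -0.61 and -0.19. Hnf4a, Cebpa, Nr5a2, Nr2f1 and Prox1 were not well above background on any array. Foxa3, Cebpd and Trp53, among those with the largest measured differences, did not have the order of Alb, and 7 of 18 regulators did (38.9%). Dbp and Zbtb20, picked after their values were seen, were among them: Dbp had 1002, 733.2 and 1114, and Zbtb20, a repressor of Afp, had 3548, 2659 and 3808.

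Of the IGF axis, 12 of 16 genes were detected and 0 passed 2-fold in any comparison (2.42%, 1.33% and 3.32% of all genes), with medians of 0.05 for Cd74 and 0.04 for Tmem54 against the empty vector. Igf2r, the receptor that clears IGF2, had signals of 123.4, 80.1 and 153.8, differing by -0.56 and 0.31. The IGF-binding protein genes Igfbp4 and Igfbp3 differed by -0.48 and -0.48 with Cd74 and by 0.21 and 0.15 with Tmem54, and Igfbp7 by -0.43 and -0.08. Igf2r, Igfbp4 and Igfbp3 had the order of arrays of Alb, 3 of 12 genes or 25.0%, near the share of all genes.

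Of 21 imprinted genes 11 were detected. With Cd74 2 of 11 were at least 2-fold lower, where 1.40% of all genes were, and with Tmem54 2 of 11, where 0.812% were; all 4 values were bounds of dim genes. With normexp 1 gene passed with Cd74 and 1 with Tmem54. Peg3, a zinc finger gene, had signals of 80.4, 2.9 and 3.0, the last 2 below the detection call, and was at least 5.7-fold lower with Cd74 and 5.82-fold with Tmem54. Its other 2 probes were not well above background on any array. Sgce was at least 2.52-fold lower with Cd74. Meg3, the non-coding neighbour of Dlk1, had 31.1, 38.4 and 11.5, was at least 2.26-fold lower with Tmem54, and was read by 1 of its 5 probes. Between Cd74 and Tmem54, of 9 imprinted genes compared, Meg3 was at least 2.91-fold higher with Cd74 (1.63% of all genes were higher) and Sgce at least 2.81-fold lower (1.69% lower); with normexp 0 passed. Plagl1, an activator of imprinted genes, differed by -0.31 and -0.57, and the dim Ascl2 by 0.46 and 0.39.

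Of 21 genes around LIN28 and let-7, 19 were detected and 0 passed 2-fold with Cd74 (2.42% of all genes) or Tmem54 (1.33%). Their medians were 0.10 for Cd74 and -0.03 for Tmem54. Myc led with signals of 7984, 11640 and 7851 (0.61 and -0.04), followed by Arid3a (0.35 with Cd74) and Dgcr8 (0.33). Igf2bp1, the sister of Igf2bp3, differed by 0.02 and -0.12.

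Of 22 other fetal or tumour-associated liver genes 18 were compared for Cd74, with a median of 0.00, and 1 was at least 2-fold higher, where 1.02% of all genes were. This was the aldo-keto reductase gene Akr1b7, not well above background without Cd74 and at least 3.9-fold above the empty vector. With normexp 0 genes of the list passed for Cd74 against the empty vector. Scd2, a fatty acid desaturase gene, had 37654, 19319 and 43741, differing by -0.90 and 0.20. Between Cd74 and Tmem54, of 18 genes compared, Scd2 was 2.15-fold lower with Cd74 (1.69% of all genes were lower). Akr1b7 was at least 3.7-fold higher (1.63% higher). With normexp 0 were higher and 1 was lower in that comparison. Sox4 and Sox9, progenitor transcription factors, differed by 0.48 and 0.35 with Cd74 and by -0.21 and -0.12 with Tmem54. The dim Igdcc4 differed by 0.37 and 0.51. With Tmem54 0 of 17 passed, with a median of 0.04.

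The remaining lists held close partners of DLK1, glypican-3 and albumin. Of 15 NOTCH pathway genes 9 were detected, with a median of 0.19 for Cd74 and -0.07 for Tmem54; the dim ligand gene Dll3 was at least 2.02-fold higher with Cd74, where 1.02% of all genes were, and 0 passed with normexp. Jag1 differed by 0.27 with Cd74, Hes1 and Notch2 by 0.22 each, and Dlk2, the paralogue of Dlk1, by -0.20. Of 11 glypicans and partners 9 were detected, and 0 passed 2-fold with Cd74 (2.42% of all genes) or Tmem54 (1.33%). Gli1, a hedgehog target, differed by 0.42 with Cd74, the dim Hhip by 0.39, Gpc4 by -0.25 and Gpc1 by 0.24. All 5 genes of albumin handling were detected and 0 passed 2-fold, against the same shares. Sparc, for a matrix protein that binds albumin, had 116210, 79662 and 131930, and Ecm1 had 14915, 11331 and 17584. These 2 of the 5 genes had the order of Alb, where 25.4% of all genes well above background on all 3 arrays did. The other 3, Fcgrt, Lrp2 and Cubn, did not. The albumin receptor gene Fcgrt differed by 0.27 and 0.09, and Lrp2, near background, by 0.02 and 0.17.

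**Figure D4:**
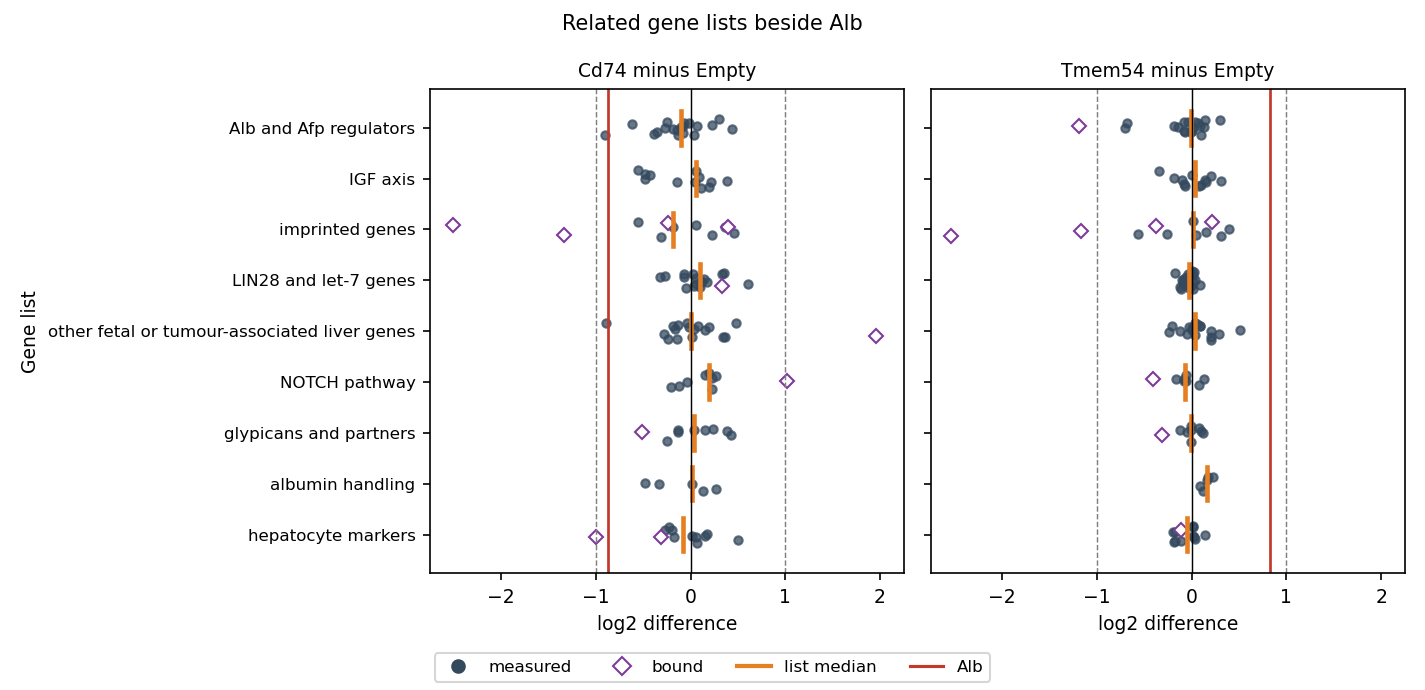
Log2 difference from the empty vector (x) of each detected gene of 8 related lists and of the hepatocyte markers (y), for Cd74 (left) and Tmem54 (right); orange bars are list medians, open diamonds bounds and red lines Alb. Alb lies at -0.87 on the left and 0.83 on the right, and all list medians lie between -0.19 and 0.20.

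The bright genes whose differences from the empty vector lay nearest to those of Alb were found by distance in the plane of both differences, over 3 arrays. The nearest were Fgf1, a fibroblast growth factor gene (-0.86 with Cd74 and 0.56 with Tmem54), and Tuba8, a tubulin gene (-0.79 and 0.56). Next came 9030619P08Rik (-0.80 and 0.41), Vamp5 (-1.01 and 0.42) and Hrct1 (-0.88 and 0.39). Each lay at least 0.27 from Alb. Of the 9901 bright genes, 8 including Alb were at least 0.5 lower with Cd74 and at least 0.5 higher with Tmem54. Angpt1 (-2.06 and 0.91) and H2-Q1 (-1.77 and 0.85) were the 2 that were as far from the empty vector as Alb in both directions. Both differences use the same empty-vector array, so its own deviation enters each of them.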

How the data were processed

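Total RNA of 3 cultures was measured on 1 array each. Agilent Feature Extraction, version 12.0.3.1, gave the deposited intensity of each spot, the processed signal, with spatial and multiplicative detrending and a preset multiplicative error of 0.1, per the file headers. The deposited value table equals that intensity divided by 580.3, 559.8 and 580.7 for empty, Cd74 and Tmem54, uncentred. Probe coordinates are on build mm9, per the file headers.

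Control and outlier spots were left out. The log2 signal minus the array's 75th percentile was used, and a gene took its brightest probe among those well above background on at least 1 array. Names other than the 10 members' came from a GRCm38.p6 table (33751 probes by accession, 9861 by symbol, 310 by synonym; 12662 unmatched). No p-value is given. Each related list was described by counts, its median and up to 4 genes with the largest measured difference from empty; the 5 bright genes nearest to Alb were named, and Foxa3, Hnf4a, Igf2bp1 and others were named as 2-fold, undetected or paralogous. Alternatives were normexp (limma 3.58.1, offset 50), other centring, filters and probe rules, and a 1.5-fold threshold. The counting step was tested on simulated data. Members and lists were chosen with earlier results of these data known. Analyses ran in Python 3.11.15. A regulator and a marker that the rule would name are not reported here.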

Additional observations from a re-analysis of the deposited data

How the results depend on the processing

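Over 10 alternatives the Alb difference ranged from -0.92 to -0.87 for Cd74 minus empty, from 0.81 to 0.85 for Tmem54 minus empty and from -1.77 to -1.69 for Cd74 minus Tmem54, where Alb passed 2-fold under every alternative. Of 146 recomputed member differences 144 moved by less than the model error and 0 that passed 2-fold changed sign. The other 2 were Dlk1, which normexp brought to bounds of -0.11 with Cd74 and -0.12 with Tmem54. The normexp offset of 50 by itself shrinks differences between dim signals, for Dlk1 and across the array. The count of members at least 2-fold for Cd74 against empty was 1 (Dlk1) in place of 0 with no detection filter, and 1 (Dlk1) when positive and significant spots counted as detected. At 1.5-fold the count was 2 for Cd74 and 2 for Tmem54 against empty, Alb and Dlk1 each time, where 7.52% and 3.81% of all genes passed. The number of genes passing 2-fold over the whole array fell to 58 higher and 61 lower with normexp for Cd74 and rose to 753 and 860 with no detection filter, from 160 and 219; for Tmem54 it was 32 and 34, and 515 and 836, from 81 and 126, and for Cd74 against Tmem54 94 and 103, and 946 and 756, from 251 and 261. With positive and significant spots it was 753 and 858, 515 and 836, and 946 and 755; with detection on both arrays 62 and 130, 31 and 61, and 140 and 170; with the next-brightest probe 49 and 50, 30 and 37, and 64 and 67. The 2-fold calls in the related lists against the empty vector were all bounds, so 0 of them were left when both arrays had to be well above background. List medians also moved with the next-brightest probe, which few genes have. For Cd74 minus empty the IGF axis went from 0.05 to -0.35 (4 genes). Albumin handling went from 0.02 to -0.62 (2 genes) and the imprinted genes from -0.18 to 0.16 (4 genes). The imprinted median also changed sign under other rules. It was 0.056 with detection on both arrays (7 genes) and 0.065 with the mean of all detected probes (11 genes). No paired analysis was possible because each vector has 1 array. Signals near background limit Igf2, Dlk1 and the imprinted genes, and 1 array per vector limits the precision of every value.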

Other observations

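Markers of other cell types were read as a check on the label and are given as values. Of 12 fibroblast and stellate cell markers 8 were well above background, with a summed level of 132 with the empty vector, 140 with Cd74 and 119 with Tmem54 in multiples of the array's 75th percentile. Most of this sum was Dcn, for the matrix protein decorin, at 98.6, 115 and 82.3. The other markers, summed after this was seen, gave 33.8, 25 and 36.9. With Cd74 7 of the 8 were below 0 (median -0.14, against 0.01 for all genes). Among these, Col1a2, Des and Pdgfra were close to 0, at -0.02 each. The collagen gene Col1a1 had signals of 8436, 4750 and 10562, and 3 of its 4 probes gave -0.73 to -0.77 with Cd74 and 0.25 to 0.31 with Tmem54. The order of arrays of Alb was held by 5 of the 8 markers, against 25.4% of all genes. Among markers well above background on all 3 arrays it was held by 3 of 6 cholangiocyte, 3 of 10 hepatocyte, 2 of 7 macrophage and 0 of 4 endothelial markers. Col3a1, dim, had 67.1, 43.2 and 96.5 on 1 of 3 probes, and Pdgfrb, a growth factor receptor gene, had 1286, 840.5 and 1490. Dcn went the other way with 67724, 75618 and 57024. Lum, Lrat, Reln and Thy1 were not well above background on any array. Their part in the Alb differences was not tested.

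Of 10 cholangiocyte markers 8, of 10 macrophage markers 7 and of 9 endothelial markers 5 were detected. The macrophage sum was 21.8, 20.9 and 21.1 and the cholangiocyte sum 58.7, 52.4 and 63.8 for empty, Cd74 and Tmem54, and the endothelial sum stayed at or below 0.441. The macrophage markers detected on every array included Ptprc (3711, 3096 and 3461), Csf1r (3626, 3001 and 3811), Cd14 (2702, 2637 and 2470), Itgam (2557, 2352 and 2552), Cd68 (1186, 1623 and 1108) and Lyz2 (1129, 990.2 and 1145). The cholangiocyte keratin gene Krt7 had 20474, 18016 and 23188. Adgre1, Clec4f, Epcam, Cdh5 and Kdr were not well above background on any array. The part of these markers in the Alb differences was not tested either.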
